A study of Mus musculus with 9 samples.

Results

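The genes described here are 37 oocyte-restricted genes of the mouse ovary, a fixed list taken by gene symbol from a table of 54838 genes. Each of the 37 symbols matched 1 row of that table. The list covers the zona pellucida, oocyte-secreted growth factors, oocyte transcription factors, the subcortical maternal complex, other NLRP genes, maternal-effect and chromatin genes, genes of meiosis, RNA decay and egg activation, germ cell RNA regulators, and multicopy or clustered oocyte families. All were measured by RNA-seq of total RNA from ovaries of adult mice 40 h after PMSG (pregnant mare serum gonadotropin), a hormone preparation with the activity of follicle-stimulating hormone that drives follicles to grow.

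There were 9 libraries, 3 for each of 3 genotypes. WT mice carried the wild-type genotype. DKO mice were labelled DKO LXR, a double knockout of the liver X receptors, which are nuclear receptors activated by oxidised cholesterol. DKO_TG mice were labelled DKO LXR TG-AMH-LXRb, that is, the same knockout with a transgene named for anti-Müllerian hormone (AMH) and LXR beta. The labels give neither the alleles nor the promoter and coding part of the transgene, so which cells express it is not given in the sources used here. All mice received PMSG, and no group without it is part of the data. No label states that libraries of 1 genotype came from separate animals, so p-values measure only the spread between these libraries, which may be technical.

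An oocyte grows inside a follicle surrounded by granulosa cells and stores RNA and protein for fertilisation and the first cleavages of the embryo. During growth it secretes the zona pellucida, the glycoprotein coat that sperm bind, and growth factors of the TGF-beta superfamily that act on the surrounding granulosa cells. Transcription factors such as FIGLA and NOBOX switch on these genes in the growing oocyte, and many of the stored products act only after ovulation, when transcription has stopped. In a whole ovary the oocytes are a small part of the tissue, and a level in bulk RNA depends on how many oocytes there are, how large they are and how much other RNA surrounds them. Fewer oocytes and less RNA per oocyte cannot be told apart in these libraries.

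The sequences upstream of 4 members are printed because these members come from 4 different roles and rose in the transgenic knockout against WT, and they were picked after their values were seen. They are RefSeq promoters of build GRCm38.p6, read 5′ to 3′ on the strand of the gene, and each ends at the base before the transcript start. Capitals mark matches on either strand to the E-box CANNTG, the motif that bHLH factors such as FIGLA and SOHLH1 bind, to the NOBOX element TAATTG or TAATTA, and to the TATA box TATAAA. Matches of different motifs were allowed to overlap.
Zp3, chr5:135979855-135980104 plus strand: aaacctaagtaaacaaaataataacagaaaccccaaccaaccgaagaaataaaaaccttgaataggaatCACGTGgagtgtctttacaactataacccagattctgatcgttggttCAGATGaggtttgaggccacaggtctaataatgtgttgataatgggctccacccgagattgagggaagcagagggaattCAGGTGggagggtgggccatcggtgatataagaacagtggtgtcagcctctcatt
Bmp15, chrX:6320725-6320974 minus strand: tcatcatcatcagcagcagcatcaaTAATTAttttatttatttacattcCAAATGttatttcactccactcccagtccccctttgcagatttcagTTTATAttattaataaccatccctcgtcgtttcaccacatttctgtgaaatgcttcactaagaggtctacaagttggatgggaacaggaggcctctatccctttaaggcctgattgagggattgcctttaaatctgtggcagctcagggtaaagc
Padi6, chr4:140742644-140742893 minus strand: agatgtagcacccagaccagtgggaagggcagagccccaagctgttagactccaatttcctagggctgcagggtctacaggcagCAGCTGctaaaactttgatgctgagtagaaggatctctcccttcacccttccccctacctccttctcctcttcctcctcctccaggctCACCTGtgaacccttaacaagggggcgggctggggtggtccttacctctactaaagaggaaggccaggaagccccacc
Btg4, chr9:51115751-51116000 plus strand: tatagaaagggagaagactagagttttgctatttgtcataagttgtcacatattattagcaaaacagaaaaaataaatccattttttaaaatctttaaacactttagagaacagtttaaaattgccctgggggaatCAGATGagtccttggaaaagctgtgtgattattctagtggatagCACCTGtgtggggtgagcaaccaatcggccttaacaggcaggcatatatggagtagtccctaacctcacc

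Upstream of Zp3 the E-box matches began at bases -181, -134 and -55, counted from -1 at the last base before the start. Bmp15 had 1 E-box match at base -201, a NOBOX element at base -225 and the reverse complement of the TATA box at base -155. Padi6 held E-box matches at bases -166 and -78, and Btg4 at bases -114 and -70. The Btg4 stretch lies inside the span of the GENCODE gene model, which reaches further upstream than the RefSeq transcript. RefSeq windows were at hand for 27 of the 37 members, with 30 windows among them, each running from 250 bases before to 50 bases after a start. Of these 30 windows, 26 (86.7%) held an E-box, against 72.3% of all 32851 promoter windows of the same length. The NOBOX element was in 5 of 30 (16.7%) against 12.4% of all windows, and the TATA box was in 3 of 30 (10%) against 13.6%. A match says only that these letters are present.

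The values are RPKM, reads per kilobase of gene on a scale set by library size, as the authors deposited them. Every member had a value above 0 in every library. The library totals, rebuilt from the steps between RPKM values, were 40142032 to 59387437 reads, and the members together held 5020 to 29390 reads per library. Nr1h2, the gene of LXR beta, was at 15.2 to 22.5 RPKM in WT, 5.79 to 7.79 in DKO and 5.14 to 5.96 in DKO_TG, so the libraries labelled with the transgene were not higher than DKO for this gene, and the genotype of these libraries rests on the label. Nr1h3, the gene of LXR alpha, was at 4.12 to 5.47 RPKM in WT, 0.590 to 1.11 in DKO and 0.538 to 0.824 in DKO_TG. The nuclear-retained RNAs Malat1 and Neat1 summed to 1.89 to 11.9 RPKM in WT, 218 to 279 in DKO and 295 to 337 in DKO_TG. This difference in Malat1 and Neat1 runs with the WT label. Whether the libraries differ in the kind of RNA they hold beyond these genes was not tested. Effects of genotype and of RNA class on any comparison with WT cannot be told apart.

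**Figure D1:**
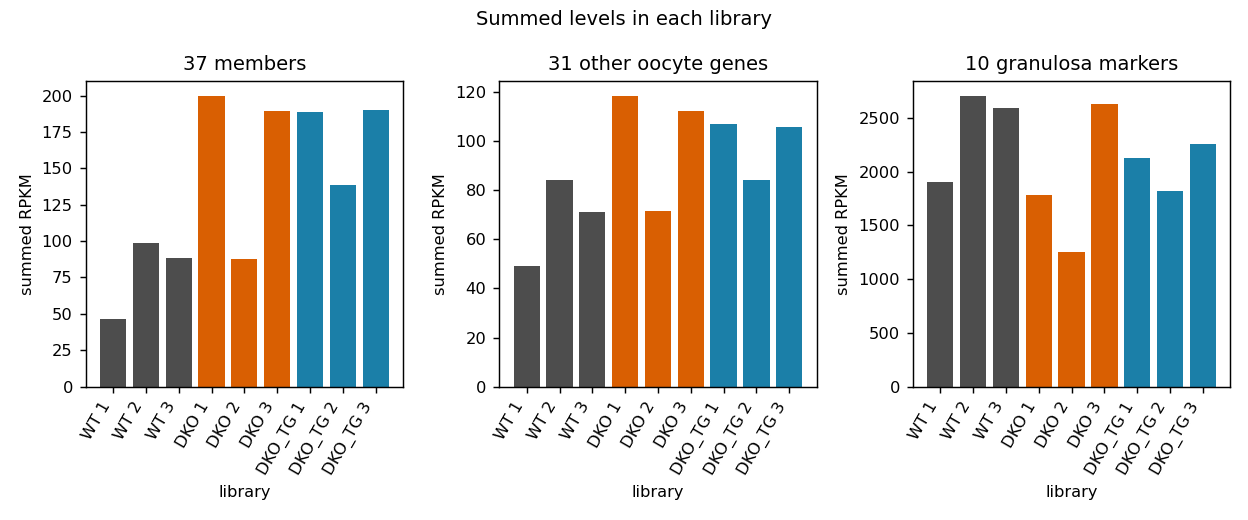
Summed RPKM in each of the 9 libraries (bars, linear axes from 0, coloured by genotype) of the 37 members, of 31 other oocyte genes that were tested and of 10 granulosa markers. The members' sums run from 46.5 in WT replicate 1 to 200.0 in DKO replicate 1, and DKO replicate 2 lies at 87.7, among the WT libraries.

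Summed over the 37 genes, the level was 46.5, 98.9 and 88.3 RPKM in replicates 1, 2 and 3 of WT. The sum was 200.0, 87.7 and 189 RPKM in DKO and 188, 139 and 190.0 RPKM in DKO_TG. All 3 DKO_TG libraries and DKO replicates 1 and 3 were above every WT library, while DKO replicate 2 was inside the WT range. The means were 77.9 ± 27.7 (SD, n = 3) in WT, 159 ± 62.1 in DKO and 172 ± 29.1 in DKO_TG. The order of the 3 group means was WT, DKO, DKO_TG from low to high for 26 members and WT, DKO_TG, DKO for 9. Mos had its highest mean in WT, and Sohlh1 had its lowest in DKO_TG. The shares of all genes in these orders were not computed. The order of DKO and DKO_TG depended on DKO replicate 2. Without that library, 5 of the 36 members that were tested were higher in DKO_TG than in DKO on the log2 scale.

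**Figure D2:**
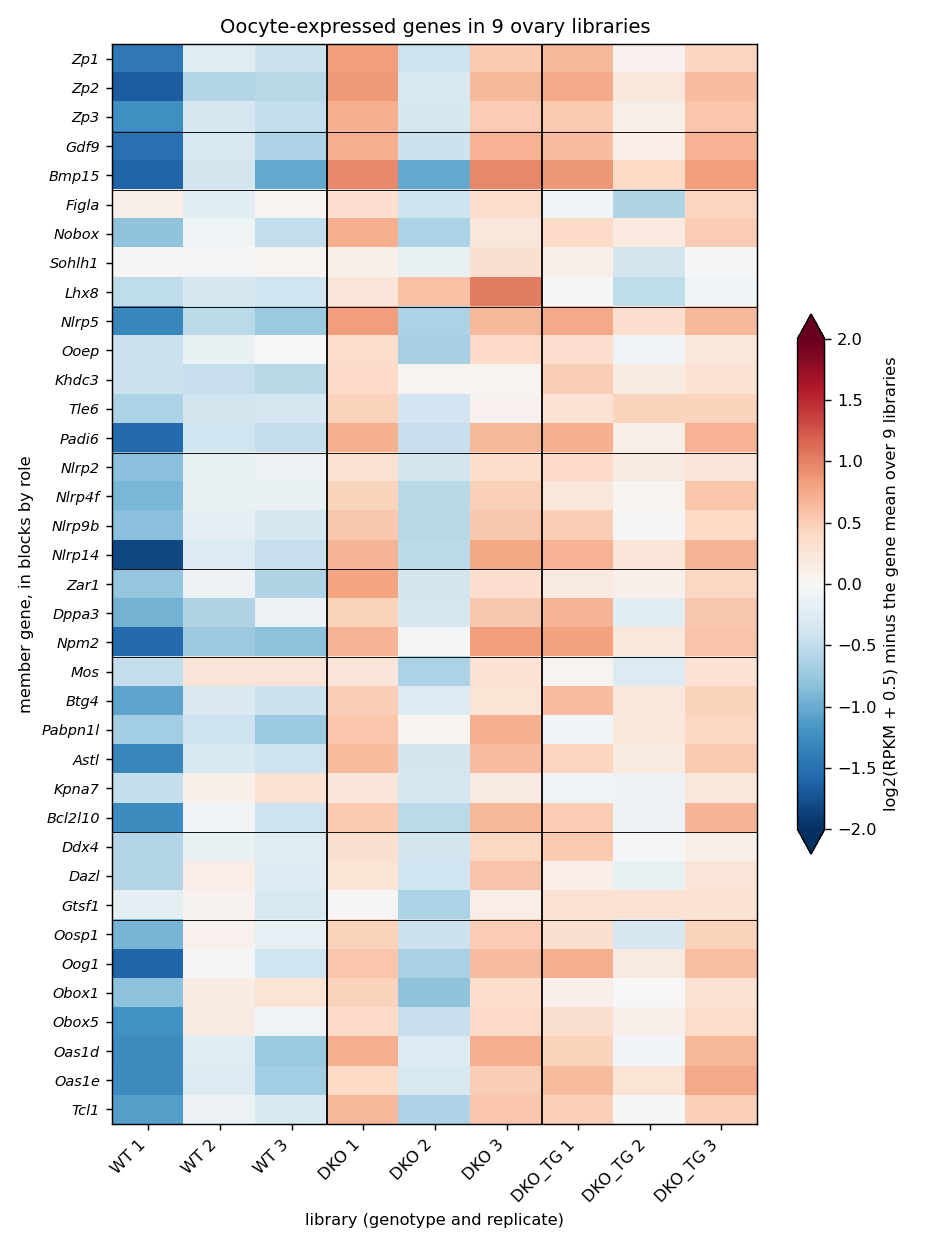
Level of each of the 37 members (rows, by role) in the 9 libraries (columns), as log2(RPKM + 0.5) minus the member's mean over the 9 libraries. WT replicate 1 is the lowest WT column for 32 of the 37 members, and DKO replicate 2 is the lowest DKO column for 35.

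The members moved together from library to library inside each genotype. WT replicate 1 was the lowest WT library for 32 of the 37 genes, DKO replicate 2 the lowest DKO library for 35, and DKO_TG replicate 2 the lowest DKO_TG library for 34. Among the 36 members that were tested, the counts were 32, 34 and 33. Over all 18889 genes tested, these libraries were the lowest of their genotype for 34.6%, 32.9% and 35.3% of genes.

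Other cell types differed between these libraries too. The summed level of 10 granulosa cell markers was 1908, 2709 and 2590 RPKM in WT replicates 1 to 3, 1782, 1252 and 2632 in DKO, and 2132, 1821 and 2254 in DKO_TG. The granulosa sum was thus lowest in the same library of each genotype as the oocyte genes. Per 1000 RPKM of granulosa markers, the members summed to 24.4, 36.5 and 34.1 RPKM for WT, to 112, 70.0 and 72.0 RPKM for DKO, and to 88.4, 76.2 and 84.3 RPKM for DKO_TG, so on this scale no DKO or DKO_TG library overlapped WT. In DKO replicate 2 the members' own sum, 87.7 RPKM, was inside the WT range, and its granulosa sum was the lowest of the 9. Inha, the largest part of that sum in both, had means of 1765 RPKM in WT and 1235 in DKO. Foxl2, another of the 10 markers, was called lower in DKO against WT. Ratios to the other marker lists were not computed. The 7 luteal markers summed to 7847 to 10341 RPKM in WT, 5434 to 7337 in DKO and 6818 to 8271 in DKO_TG. Their highest library was replicate 1 in WT and in DKO and replicate 2 in DKO_TG. The sums of 8 macrophage and 5 erythrocyte markers were highest of the DKO libraries in replicate 2, at 353 and 2409 RPKM. In DKO_TG, replicate 2 was the lowest for both, at 85.3 and 198 RPKM. WT replicate 1 lay between the other WT libraries for both, at 123 and 1130 RPKM. The part of these cell types in the levels of the oocyte genes was not tested.

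Differences between genotypes were tested with limma on log2(RPKM + 0.5), with the libraries on the authors' own scale and all 9 in 1 fit. A gene was tested when it reached 0.5 RPKM in at least 3 libraries, and p-values were adjusted over all 18889 tested genes by the Benjamini-Hochberg method. A gene is called higher or lower here at an adjusted p under 0.05. A log2 change is a difference of group means on this scale, which understates the change of genes near 0.5 RPKM. Sohlh1 did not reach the level and was not tested. Of the 36 tested members, Figla, Lhx8, Khdc3, Nlrp2 and Ddx4 had no WT library at 0.5 RPKM and passed only through libraries of the knockout genotypes, so the filter favours a higher level there for these 5. Among the other 31, 13 were called higher in DKO and 16 in DKO_TG against WT, beside 30.8% and 29.1% of all 18889 tested genes. The shares among only those genes with a WT library at 0.5 RPKM were not computed.

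In DKO against WT, 15 of the 36 tested members rose and none fell, which is 41.7% of them. The same call was made higher for 30.8% of the tested genes and lower for 25.9%. At an unadjusted p under 0.05, 19 members were higher and none lower, beside 33.3% and 29.2% of the tested genes. The members' median log2 change was 0.75, with a range of -0.04 to 1.53, and that of all tested genes was 0.02. The 3 DKO libraries lay above all 3 WT libraries for 7 of the 36 tested members and below them for none. Of all tested genes, 32.6% lay above and 28.6% below, so the members' share above WT was smaller than that of all genes. Of the 27 members with a mean of at least 1 RPKM over the 9 libraries, 12 rose.

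In DKO_TG against WT, 17 of 36 rose and none fell, which is 47.2%. The corresponding shares of all tested genes were 29.1% higher and 22.3% lower. At an unadjusted p under 0.05, 23 members were higher and none lower, beside 31.9% and 25.7% of the tested genes. The members' median log2 change was 0.82, with a range of -0.05 to 1.70, beside 0.03 over all tested genes. The 3 DKO_TG libraries lay above all WT libraries for 25 members and below them for none, against 35.6% and 30.2% of the tested genes. Of the 27 members with a mean of at least 1 RPKM, 15 rose. Both comparisons use the same 3 WT libraries. Called in both were Zp1, Zp2, Zp3, Gdf9, Nlrp5, Khdc3, Tle6, Padi6, Npm2, Btg4, Pabpn1l, Astl, Oas1d and Oas1e. Lhx8 was called in DKO alone, and Bmp15, Nlrp14 and Dppa3 in DKO_TG alone. Whether the change of these 4 differed between the genotypes is given by DKO_TG against DKO, where none of them was called.

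Single libraries decided many of these calls. The DKO count was 5 without WT replicate 1, without DKO replicate 1 or without DKO replicate 3, and 29 without DKO replicate 2. Khdc3, Lhx8, Npm2, Pabpn1l and Zp2 kept the call each time, and the other 10 had adjusted p of 0.0619 to 0.150 in limma. Of those that kept it, Khdc3 and Lhx8 passed the filter only through libraries of the knockout genotypes. The DKO_TG count was 8 without WT replicate 1, DKO_TG replicate 1 or DKO_TG replicate 3, and 20 without WT replicate 2. Btg4, Khdc3, Nlrp5, Npm2, Oas1e, Pabpn1l, Tle6 and Zp2 kept the call each time, and the other 9 had adjusted p of 0.0529 to 0.145. When each library was scaled to the median of the members themselves, 1 member was higher in each comparison, Lhx8 in DKO and Bmp15 in DKO_TG. Since that median is made of the same members, part of this loss of calls follows from the calculation. The shares of all tested genes called in these alternative fits are not given here. Whether the swings in count are particular to the members is therefore not shown.

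**Figure D3:**
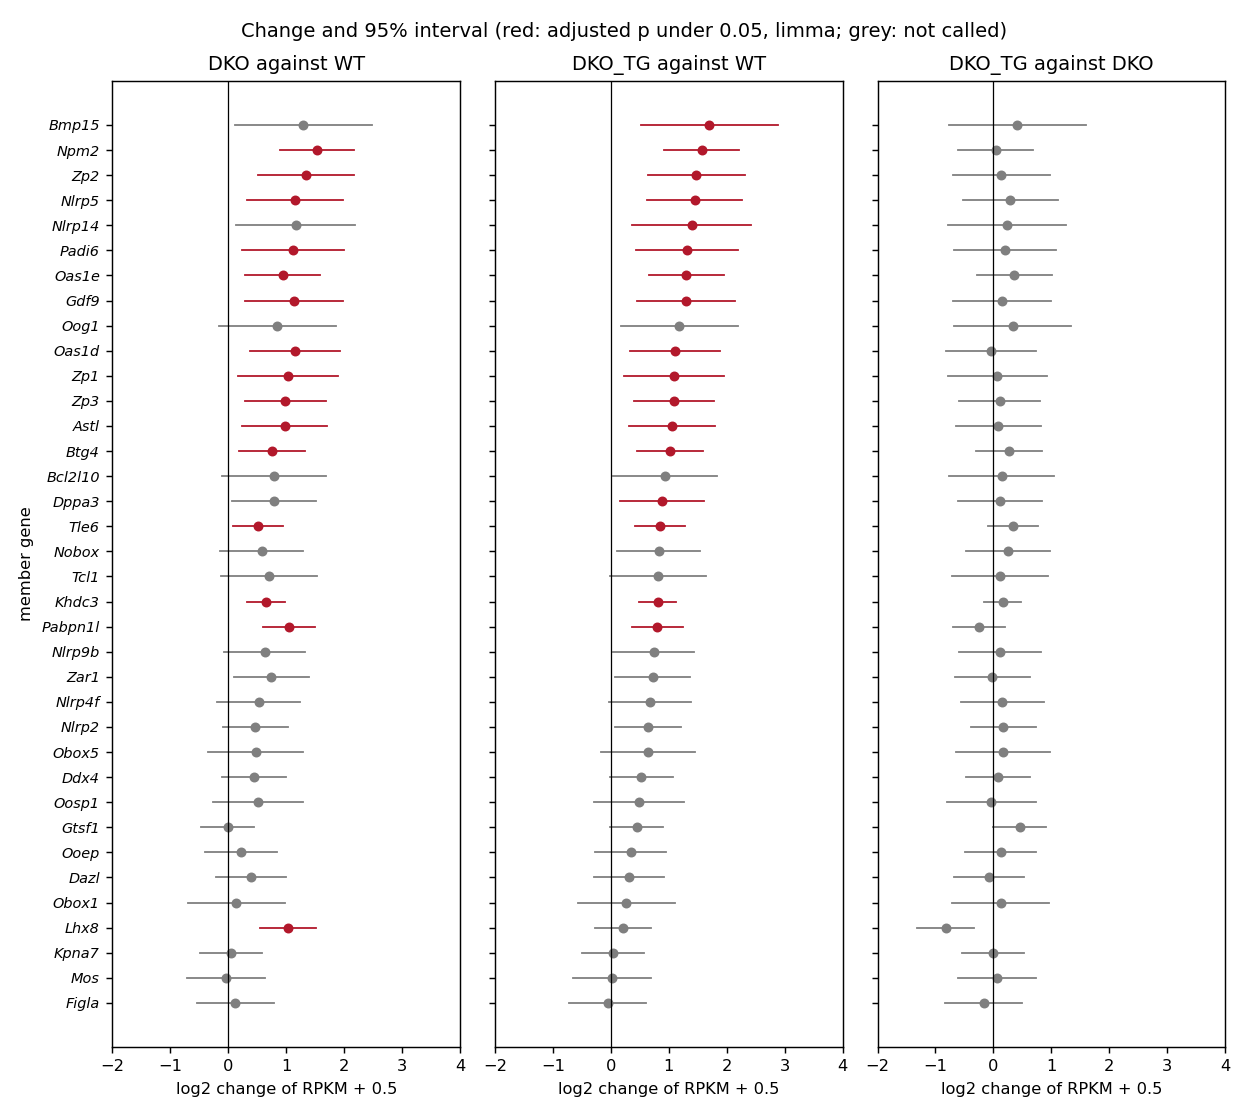
Log2 change of the 36 tested members with 95% intervals, for DKO against WT, DKO_TG against WT and DKO_TG against DKO. Against WT, 34 of 36 points lie above 0 in DKO and 35 of 36 in DKO_TG, with 0 called lower, and in DKO_TG against DKO 0 members are called.

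The zona pellucida genes all rose in both genotypes. The coat they encode is built of filaments of ZP2 and ZP3 that ZP1 cross-links, and ZP2 is the protein cleaved after fertilisation to block further sperm. Zp2 (ENSMUSG00000030911, mm10 chr7:120126772-120145291, minus strand) was at 2.31, 5.40 and 5.53 RPKM across WT, 15.6, 6.66 and 13.5 across DKO and 14.5, 9.94 and 13.1 across DKO_TG, in the order of replicates 1, 2 and 3 as in all sentences of this kind. No DKO or DKO_TG library overlapped WT, and DKO replicate 2 stood closest to it. Zp2 rose by 1.34 ± 0.37 (SE, adjusted p = 0.0134) in DKO and by 1.47 ± 0.37 (SE, adjusted p = 0.00945) in DKO_TG on the log2 scale. Zp3 (ENSMUSG00000004948, chr5:135980099-135988624, plus strand), whose upstream stretch held 3 E-box matches, was at 4.16, 8.03 and 7.24 RPKM across WT, 17.4, 8.07 and 14.9 across DKO and 15.1, 11.3 and 15.5 across DKO_TG. The lowest DKO library exceeded the highest WT library by little, and DKO_TG was clear of WT. Zp3 rose by 0.98 ± 0.31 (SE, adjusted p = 0.0234) in DKO and by 1.09 ± 0.31 (SE, adjusted p = 0.0165) in DKO_TG. Zp1 (ENSMUSG00000024734, chr19:10914287-10920632, minus strand) was at 0.948, 2.80 and 2.39 RPKM across WT, 6.49, 2.42 and 5.15 across DKO and 5.63, 3.64 and 4.76 across DKO_TG. DKO replicate 2 lay within the WT range, and the DKO_TG libraries were all above it. Zp1 rose by 1.02 ± 0.38 (SE, adjusted p = 0.0454) in DKO and by 1.09 ± 0.38 (SE, adjusted p = 0.0389) in DKO_TG. Zp2 kept its call without any 1 library. Zp1 and Zp3 lost theirs in DKO without WT replicate 1, DKO replicate 1 or DKO replicate 3, and in DKO_TG without WT replicate 1, DKO_TG replicate 1 or DKO_TG replicate 3, Zp1 also without WT replicate 3, with adjusted p of 0.0576 to 0.150 in DKO and 0.0521 to 0.127 in DKO_TG.

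The balance of the coat genes is given by their ratios. The ratio of Zp3 to Zp2 in RPKM, which is a ratio per length, was 1.80, 1.49 and 1.31 for WT, 1.11, 1.21 and 1.11 for DKO, and 1.04, 1.14 and 1.18 for DKO_TG. Every WT library had a higher ratio than every knockout library, with means of 1.53 ± 0.25 (SD, n = 3), 1.14 ± 0.06 and 1.12 ± 0.07. The ratio of Zp2 to Zp1 was 1.93 to 2.44 in WT, 2.40 to 2.75 in DKO and 2.58 to 2.75 in DKO_TG. These ratios are given as a description without a test.

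**Figure D4:**
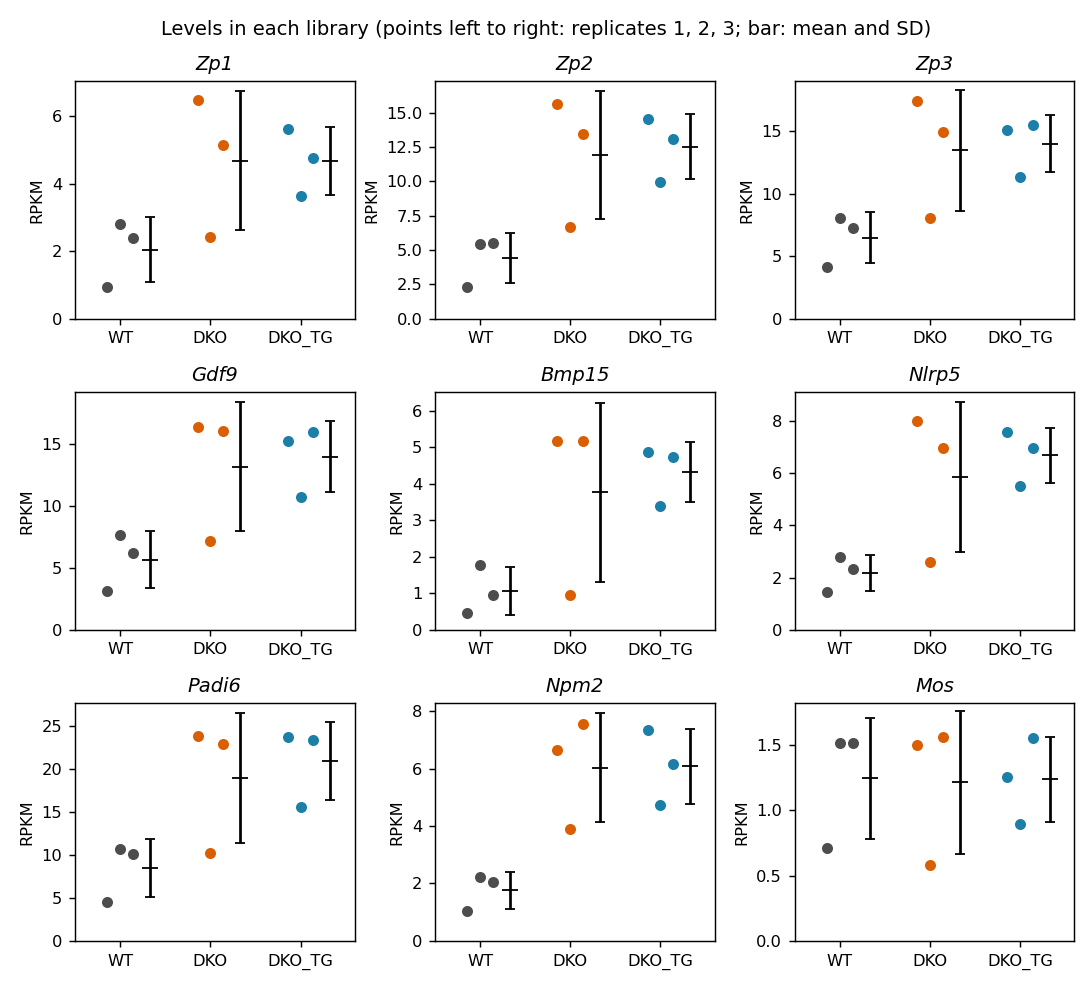
RPKM of Zp1, Zp2, Zp3, Gdf9, Bmp15, Nlrp5, Padi6, Npm2 and Mos in every library (points, linear axes from 0) with the mean and SD of each genotype (bars). Zp2, Zp3 and Npm2 have no DKO library inside the WT range, and for Mos the 3 genotypes overlap.

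Of the growth factors through which the oocyte acts on granulosa cells, Gdf9 rose in both genotypes and Bmp15 in DKO_TG. Gdf9 (ENSMUSG00000018238, chr11:53431023-53437904, plus strand) was at 3.15, 7.68 and 6.23 RPKM across WT, 16.4, 7.15 and 16.1 across DKO and 15.3, 10.8 and 16.0 across DKO_TG. DKO replicate 2 lay between WT replicates 3 and 2, and the 3 DKO_TG libraries were all above WT. Gdf9 rose by 1.14 ± 0.37 (SE, adjusted p = 0.0280) in DKO and by 1.29 ± 0.37 (SE, adjusted p = 0.0183) in DKO_TG. Bmp15 (ENSMUSG00000023279, chrX:6314107-6320721, minus strand), of the 4 printed stretches the one with a NOBOX element, was at 0.471, 1.77 and 0.947 RPKM across WT, 5.18, 0.942 and 5.19 across DKO and 4.86, 3.39 and 4.74 across DKO_TG. DKO replicates 1 and 3 were the highest libraries and DKO replicate 2 was between WT replicates 1 and 3. Bmp15 rose by 1.70 ± 0.52 (SE, adjusted p = 0.0234) in DKO_TG and differed by 1.29 ± 0.52 (SE, adjusted p = 0.0602) in DKO, which did not pass. The call of Gdf9 in DKO was lost without WT replicate 1, DKO replicate 1 or DKO replicate 3, with adjusted p of 0.0867 to 0.0943. In DKO_TG the calls of Gdf9 and Bmp15 were lost without WT replicate 1, DKO_TG replicate 1 or DKO_TG replicate 3, and that of Bmp15 without WT replicate 3, with adjusted p of 0.0564 to 0.0849. The ratio of Gdf9 to Bmp15 was 6.69, 4.35 and 6.58 in WT and 3.14, 3.17 and 3.38 in DKO_TG. In DKO it was 3.17 and 3.10 in replicates 1 and 3, close to DKO_TG, and 7.59 in replicate 2, above every WT library.

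Of the transcription factors, Figla, Sohlh1 and Lhx8 were among the lowest members, and Nobox was higher. Nobox, a homeobox factor of growing oocytes, was at 0.662, 1.41 and 0.946 RPKM across WT, 2.86, 0.817 and 1.88 across DKO and 2.15, 1.82 and 2.39 across DKO_TG. DKO replicate 2 was within the WT range, DKO_TG was above it, and the change of 0.82 ± 0.32 (SE, adjusted p = 0.0559) in DKO_TG did not pass. Lhx8, a LIM homeobox factor of early oocytes, was at 0.121, 0.203 and 0.172 RPKM across WT, 0.540, 0.823 and 1.31 across DKO and 0.364, 0.124 and 0.333 across DKO_TG. All 3 DKO libraries were above all WT and all DKO_TG libraries. DKO replicate 2 was not the lowest DKO library, unlike for nearly all other members, while DKO_TG replicate 2 was the lowest DKO_TG library. Lhx8 rose by 1.03 ± 0.21 (SE, adjusted p = 0.00372) in DKO against WT and kept that call without any 1 library. After quantile normalization the call was lost (limma, adjusted p = 0.173). In DKO_TG the difference from WT was 0.21 ± 0.21 (SE, adjusted p = 0.451), and it turned to -0.45 after quantile normalization and to -0.04 when scaled to the median of the members. Figla, a bHLH factor of the zona genes, was at 0.366, 0.187 and 0.322 RPKM across WT, 0.514, 0.0974 and 0.530 across DKO and 0.270, 0.0288 and 0.576 across DKO_TG. The ranges of Figla overlapped, and its lowest value stands on 1 read. Sohlh1, another bHLH factor of early oocytes, was at 0.305, 0.277 and 0.321 RPKM across WT, 0.349, 0.215 and 0.486 across DKO and 0.350, 0.112 and 0.280 across DKO_TG, with all 3 genotypes overlapping.

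The subcortical maternal complex is a set of proteins beneath the oocyte membrane that embryos need for their first cleavages, and Padi6 takes part in the fibre lattices of the egg. Of its 5 members, 4 rose in DKO and 4 in DKO_TG. Padi6 (ENSMUSG00000040935, chr4:140727355-140742643, minus strand), with E-box matches in its printed upstream stretch, was at 4.54, 10.7 and 10.1 RPKM across WT, 23.8, 10.2 and 22.8 across DKO and 23.7, 15.6 and 23.3 across DKO_TG, and its mean over the 9 libraries, 16.1 RPKM, was the highest of all members. DKO replicate 2 lay between WT replicates 3 and 2. Padi6 rose by 1.12 ± 0.39 (SE, adjusted p = 0.0355) in DKO and by 1.32 ± 0.39 (SE, adjusted p = 0.0198) in DKO_TG. Nlrp5 (ENSMUSG00000015721, chr7:23385889-23441922, plus strand), which encodes the maternal antigen MATER, was at 1.43, 2.78 and 2.34 RPKM across WT, 8.01, 2.59 and 6.97 across DKO and 7.56, 5.50 and 6.97 across DKO_TG. All DKO_TG libraries were above WT and DKO replicate 2 was not. Nlrp5 rose by 1.15 ± 0.36 (SE, adjusted p = 0.0242) in DKO and by 1.44 ± 0.36 (SE, adjusted p = 0.00988) in DKO_TG.

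Tle6, a cofactor of the Groucho family in the same complex, was at 9.52, 11.6 and 11.6 RPKM across WT, 21.0, 11.5 and 16.0 across DKO and 18.5, 20.7 and 20.6 across DKO_TG. Its 3 WT libraries differed less than those of most members, DKO replicate 2 lay among them, and the DKO_TG libraries were above them. Tle6 rose by 0.51 ± 0.19 (SE, adjusted p = 0.0453) in DKO, a change that was -0.11 when each library was scaled to the median of the members, and by 0.85 ± 0.19 (SE, adjusted p = 0.00573) in DKO_TG. Khdc3, which encodes the KH-domain protein FILIA, was at 0.128, 0.109 and 0.0707 RPKM across WT, 0.600, 0.373 and 0.373 across DKO and 0.680, 0.459 and 0.529 across DKO_TG. All 6 knockout libraries were above WT. Khdc3 rose by 0.65 ± 0.14 (SE, adjusted p = 0.00497) in DKO, a change that was -0.09 after quantile normalization, and by 0.80 ± 0.14 (SE, adjusted p = 0.00184) in DKO_TG. Of its exon length, 38.5% is shared with the gene model Gm20509 on the same strand, and reads that lie within the shared part cannot be told apart. Ooep, another KH-domain member, was at 1.60, 2.08 and 2.34 RPKM across WT, 3.13, 1.29 and 3.20 across DKO and 3.07, 2.16 and 2.80 across DKO_TG and was not called in either comparison. In DKO the calls of Nlrp5, Padi6 and Tle6 were lost without WT replicate 1, DKO replicate 1 or DKO replicate 3, and that of Tle6 also without WT replicate 2 or 3, with adjusted p of 0.0678 to 0.136. In DKO_TG the call of Padi6 was lost without WT replicate 1, DKO_TG replicate 1 or DKO_TG replicate 3, with adjusted p of 0.0629 to 0.0636.

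The other NLRP genes encode relatives of Nlrp5 that oocytes express. Nlrp14, the highest of them, was at 1.83, 6.31 and 5.45 RPKM across WT, 12.6, 5.19 and 13.6 across DKO and 12.8, 9.22 and 12.7 across DKO_TG. The DKO libraries overlapped WT through replicate 2 and the DKO_TG libraries were all above WT. Nlrp14 rose by 1.39 ± 0.45 (SE, adjusted p = 0.0294) in DKO_TG, and its change of 1.16 ± 0.45 (SE, adjusted p = 0.0530) in DKO did not pass. The DKO_TG call was lost without WT replicate 1, DKO_TG replicate 1 or DKO_TG replicate 3, with adjusted p of 0.0811 to 0.0835. Nlrp4f was at 0.745, 1.61 and 1.61 RPKM across WT, 2.69, 1.08 and 2.75 across DKO and 2.22, 1.92 and 2.94 across DKO_TG. Nlrp9b was at 0.375, 0.876 and 0.728 RPKM across WT, 1.76, 0.564 and 1.76 across DKO and 1.68, 1.03 and 1.55 across DKO_TG. For both genes DKO replicate 2 was inside the WT range and DKO_TG was above it. Nlrp2 was at 0.0498, 0.389 and 0.407 RPKM across WT, 0.718, 0.260 and 0.762 across DKO and 0.789, 0.618 and 0.664 across DKO_TG, and its lowest library was WT replicate 1. None of these 3 genes passed the test in either comparison, and reads may be split between near-identical copies of the Nlrp4 and Nlrp9 families. Exon overlaps with other gene models covered 3.0% of Nlrp2 and 3.7% of Nlrp9b.

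Of the 3 maternal-effect and chromatin genes, Npm2 rose in both genotypes and Dppa3 in DKO_TG. Npm2 encodes nucleoplasmin, the histone chaperone that opens sperm chromatin after fertilisation. Npm2 (ENSMUSG00000047911, chr14:70647302-70659244, minus strand) was at 1.03, 2.22 and 2.04 RPKM across WT, 6.66, 3.91 and 7.54 across DKO and 7.34, 4.75 and 6.16 across DKO_TG. All 6 knockout libraries were above the 3 WT libraries, DKO replicate 2 included. Npm2 rose by 1.53 ± 0.28 (SE, adjusted p = 0.00211) in DKO and by 1.56 ± 0.28 (SE, adjusted p = 0.00201) in DKO_TG and kept both calls without any 1 library. Of its exon length, 3.8% overlaps Xpo7. Dppa3, also called Stella, which protects maternal DNA methylation in the zygote, was at 1.52, 2.06 and 3.09 RPKM across WT, 4.86, 2.59 and 5.16 across DKO and 5.72, 2.84 and 5.13 across DKO_TG. DKO replicate 2 and DKO_TG replicate 2 were inside the WT range. Dppa3 rose by 0.89 ± 0.32 (SE, adjusted p = 0.0439) in DKO_TG and differed by 0.78 ± 0.32 (SE, adjusted p = 0.0628) in DKO. That DKO_TG call was lost without WT replicate 1 or 2 or DKO_TG replicate 1 or 3, with adjusted p of 0.0974 to 0.145. Zar1, which binds and stores maternal mRNA, was at 0.473, 1.06 and 0.603 RPKM across WT, 2.37, 0.794 and 1.61 across DKO and 1.40, 1.29 and 1.72 across DKO_TG. Its DKO_TG libraries were above WT and DKO replicate 2 was not. Zar1 differed by 0.74 ± 0.28 (SE, adjusted p = 0.0501) in DKO, next to the threshold, and by 0.72 ± 0.28 (SE, adjusted p = 0.0599) in DKO_TG.

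Of the 6 genes of meiosis, RNA decay and egg activation, Btg4, Pabpn1l and Astl rose in both genotypes and the other 3 were not called. Btg4, an adaptor that brings the deadenylase to maternal mRNA and whose upstream stretch is printed with its E-box matches, was at 0.137, 0.577 and 0.478 RPKM across WT, 1.35, 0.586 and 1.09 across DKO and 1.52, 1.05 and 1.29 across DKO_TG. All knockout libraries exceeded WT, DKO replicate 2 by a small margin. Btg4 rose by 0.75 ± 0.25 (SE, adjusted p = 0.0297) in DKO and by 1.02 ± 0.25 (SE, adjusted p = 0.00868) in DKO_TG. Pabpn1l, the oocyte poly(A)-binding protein that acts with BTG4, was at 0.403, 0.600 and 0.382 RPKM across WT, 1.65, 1.01 and 1.90 across DKO and 0.911, 1.19 and 1.45 across DKO_TG. No knockout library overlapped WT. Pabpn1l rose by 1.05 ± 0.20 (SE, adjusted p = 0.00218) in DKO and by 0.80 ± 0.20 (SE, adjusted p = 0.00876) in DKO_TG and kept both calls without any 1 library. Astl encodes ovastacin, the cortical granule protease that cleaves ZP2 after fertilisation, and was at 0.682, 1.88 and 1.71 RPKM across WT, 4.05, 1.78 and 3.98 across DKO and 3.46, 2.82 and 3.73 across DKO_TG. DKO replicate 2 was inside the WT range and DKO_TG was above it. Astl rose by 0.97 ± 0.32 (SE, adjusted p = 0.0309) in DKO and by 1.05 ± 0.32 (SE, adjusted p = 0.0240) in DKO_TG. In DKO the calls of Btg4 and Astl were lost without WT replicate 1, DKO replicate 1 or DKO replicate 3, with adjusted p of 0.0773 to 0.0989. In DKO_TG that of Astl was lost without WT replicate 1, DKO_TG replicate 1 or DKO_TG replicate 3, with adjusted p of 0.0645 to 0.0748.

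Mos, the kinase that starts the MAP kinase cascade and holds the egg at metaphase of the second meiotic division, was at 0.708, 1.51 and 1.51 RPKM across WT, 1.50, 0.584 and 1.56 across DKO and 1.26, 0.898 and 1.55 across DKO_TG. WT replicates 2 and 3 were close to DKO replicates 1 and 3 and with DKO_TG replicate 3, and Mos was not called in either comparison. Kpna7, an importin of oocytes, was at 0.251, 0.620 and 0.786 RPKM across WT, 0.735, 0.317 and 0.673 across DKO and 0.484, 0.469 and 0.717 across DKO_TG. The Kpna7 ranges of the 3 genotypes overlapped without a call. Bcl2l10, a BCL2 family member of oocytes, was at 1.15, 3.32 and 2.48 RPKM across WT, 5.19, 2.22 and 5.79 across DKO and 5.12, 3.14 and 5.84 across DKO_TG. DKO_TG replicate 2 was within the WT range, and the change of 0.93 ± 0.40 (SE, adjusted p = 0.0777) did not pass.

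None of the germ cell RNA regulators was called against WT. Ddx4, the Vasa helicase, was at 0.101, 0.319 and 0.268 RPKM across WT, 0.635, 0.200 and 0.705 across DKO and 0.796, 0.392 and 0.480 across DKO_TG. Its DKO_TG libraries lay above WT, and its DKO libraries overlapped WT. Dazl, which controls translation of stored mRNA, was at 0.257, 0.743 and 0.450 RPKM across WT, 0.875, 0.362 and 1.18 across DKO and 0.735, 0.524 and 0.851 across DKO_TG, with overlap between all genotypes. Gtsf1, a factor of the piRNA pathway, was at 0.487, 0.692 and 0.417 RPKM across WT, 0.647, 0.234 and 0.748 across DKO and 0.899, 0.902 and 0.881 across DKO_TG. The 3 Gtsf1 values of DKO_TG were nearly the same and above all DKO and all WT libraries.

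In the clustered families, Oas1d and Oas1e rose in both genotypes and the other 5 members were not called. Oas1d and Oas1e are oocyte copies of the oligoadenylate synthetase family and lie in 1 cluster on chromosome 5. Oas1d was at 0.583, 1.73 and 1.08 RPKM across WT, 3.85, 1.68 and 3.85 across DKO and 3.09, 2.04 and 3.67 across DKO_TG. DKO replicate 2 was just inside the WT range and DKO_TG was above it. Oas1d rose by 1.15 ± 0.34 (SE, adjusted p = 0.0191) in DKO and by 1.11 ± 0.34 (SE, adjusted p = 0.0242) in DKO_TG. Oas1e was at 0.800, 2.05 and 1.40 RPKM across WT, 3.60, 1.97 and 3.87 across DKO and 4.31, 3.23 and 4.73 across DKO_TG. The arrangement of its libraries was the same as for Oas1d. Oas1e rose by 0.94 ± 0.29 (SE, adjusted p = 0.0210) in DKO and by 1.30 ± 0.29 (SE, adjusted p = 0.00529) in DKO_TG. Both DKO calls were lost without WT replicate 1, DKO replicate 1 or DKO replicate 3, with adjusted p of 0.0619 to 0.0708, and the DKO_TG call of Oas1d without WT replicate 1 or 3 or DKO_TG replicate 1 or 3, with adjusted p of 0.0553 to 0.0860. Near-identical copies in these families make each single gene's count uncertain.

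Oog1, a leucine-rich repeat gene with close copies, was at 1.63, 5.86 and 4.42 RPKM across WT, 8.96, 3.61 and 9.47 across DKO and 10.2, 6.81 and 9.36 across DKO_TG. Its DKO_TG libraries were above WT, and the change of 1.18 ± 0.45 (SE, adjusted p = 0.0525) was next to the threshold. Oosp1, which encodes a protein secreted by the oocyte, was at 2.07, 4.69 and 3.83 RPKM across WT, 6.23, 3.13 and 6.42 across DKO and 5.59, 3.35 and 6.24 across DKO_TG. Its lowest DKO and DKO_TG libraries were inside the WT range. The homeobox gene Obox1 was at 0.781, 1.99 and 2.22 RPKM across WT, 2.59, 0.797 and 2.37 across DKO and 1.93, 1.75 and 2.25 across DKO_TG. Obox5 was at 0.143, 1.19 and 0.911 RPKM across WT, 1.44, 0.587 and 1.43 across DKO and 1.36, 1.11 and 1.43 across DKO_TG. For both Obox genes all 3 genotypes overlapped. Tcl1, a co-activator of the AKT kinase, was at 0.592, 1.65 and 1.39 RPKM across WT, 3.16, 1.02 and 2.93 across DKO and 2.74, 1.80 and 2.74 across DKO_TG. Its DKO_TG libraries were above WT, DKO replicate 2 was not, and it was not called.

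In the transgenic knockout against the knockout, none of the 36 tested members was called by limma. The background was 0.498% of tested genes higher and 1.73% lower. At an unadjusted p under 0.05, 1 member, Gtsf1, was higher and 1, Lhx8, was lower, beside 6.87% and 8.95% of the tested genes. These 2 were also the members whose libraries did not overlap, against 12.1% of the tested genes in each direction, and with limma-voom on the rebuilt reads no member was called either. The members' median log2 change was 0.13, beside 0.03 over all tested genes, and 28 of 36 members were above 0. Leaving out DKO replicate 2 gave a median of -0.22 for the members, with 5 of 36 above 0. Gtsf1 differed by 0.46 ± 0.20 (SE, adjusted p = 0.315) and Lhx8 by -0.82 ± 0.21 (SE, adjusted p = 0.0971). The intervals of the main members were wide. Zp3 differed by 0.11 (95% interval -0.59 to 0.80), and Padi6 by 0.20 (95% interval -0.68 to 1.08). Gdf9 differed by 0.15 (95% interval -0.69 to 1.00), and Nlrp5 by 0.29 (95% interval -0.53 to 1.12). Each interval reaches well to both sides of 0, so a missing call does not show equal levels. Without DKO replicate 2 the sign of all 4 turned, to -0.21 for Zp3, -0.18 for Padi6, -0.23 for Gdf9 and -0.16 for Nlrp5. Lhx8 was called lower without DKO replicate 1, at -1.02 (adjusted p = 0.0422), and not without any other 1 library.

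**Figure D5:**
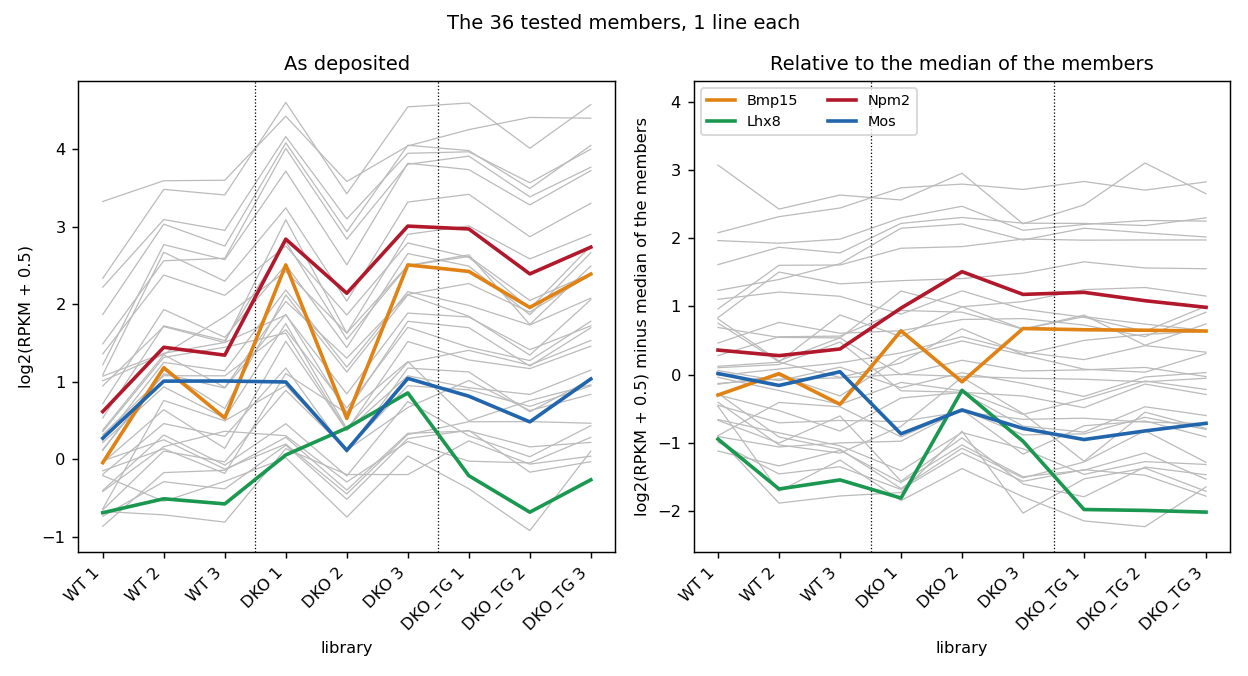
Log2(RPKM + 0.5) of each tested member minus the median of the tested members in the same library, in the 9 libraries, with Npm2, Bmp15, Lhx8 and Mos in colour. Npm2 lies higher in every knockout library than in every WT library and Mos lower, and neither is alone in this among the members.

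The composition of the oocyte signal was compared by subtracting, in each library, the median of the 36 tested members on the log2 scale. The median range of a member over the 9 libraries was then 0.80, against 1.58 without the subtraction, and it was narrower for 30 of the 36. Since the median is made of the same members, part of this narrowing follows from the calculation. The exceptions were Figla, Lhx8, Khdc3, Mos, Kpna7 and Gtsf1. All of these but Mos had means of 0.321 to 0.656 RPKM over the 9 libraries. At such levels the added 0.5 flattens a member's range before the subtraction. Tcl1 stayed closest to the median, with a range of 0.13.

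Relative to that median, Npm2 stood at 0.36, 0.28 and 0.37 for WT, 0.97, 1.51 and 1.17 for DKO, and 1.20, 1.08 and 0.98 for DKO_TG. Every knockout library was above every WT library. Mos stood at 0.02, -0.16 and 0.04 for WT, -0.87, -0.52 and -0.79 for DKO, and -0.95, -0.83 and -0.71 for DKO_TG, and every knockout library was below every WT library. The same separation was upward for Zp1, Zp2, Zp3, Gdf9, Nlrp5, Padi6, Nlrp14, Astl and Oas1d, and downward for Obox1. Bmp15 stood at -0.30, 0.01 and -0.44 in WT and at 0.66, 0.65 and 0.64 in DKO_TG. In DKO it was at 0.64 and 0.67 in replicates 1 and 3 and at -0.11 in replicate 2, which lay inside the WT range. Lhx8 in DKO was at -1.81, -0.23 and -0.98, the widest spread of any member within a genotype. In DKO_TG it was at -1.98, -1.99 and -2.01, while its RPKM there was 0.364, 0.124 and 0.333. Below 0.5 RPKM the added 0.5 flattens a gene's own differences, so such relative values partly mirror the median of the members. The added 0.5 makes an equal fold change larger on this scale for high members than for low ones. A separation in relative level therefore need not be a change in composition. These relative levels are a description and were not tested.

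The members are spread over the genome, with 7 on chromosome 7, 5 on chromosome 5 and 4 on chromosome 9. Zp2, Nlrp2, Nlrp5, Nlrp9b, Nlrp14, Obox1 and Obox5 are those on chromosome 7. Of them, Zp2 and Nlrp5 rose in both genotypes and Nlrp14 in DKO_TG alone, and the others were not called.

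A list of 46 further oocyte genes, of which 45 were in the table and 31 were tested, was read in the same way. In each knockout genotype 10 of the 31 rose against WT and none fell, which is 32.3% beside 30.8% and 29.1% of all genes. Their median log2 change was 0.63 in DKO and 0.72 in DKO_TG. The DKO count ran from 1 without WT replicate 1 or DKO replicate 3 to 24 without DKO replicate 2, and the DKO_TG count from 5 to 13. Cpeb1, which controls polyadenylation of stored mRNA and is also active outside the oocyte, was at 0.948, 1.17 and 0.938 RPKM across WT, 2.62, 2.20 and 3.18 across DKO and 2.30, 2.14 and 2.15 across DKO_TG. All knockout libraries were above WT. Cpeb1 rose by 1.05 ± 0.13 (SE, adjusted p = 0.000206) in DKO and by 0.83 ± 0.13 (SE, adjusted p = 0.000803) in DKO_TG. Nlrp9c rose by 0.71 (adjusted p = 0.0178) in DKO and 0.92 (adjusted p = 0.00583) in DKO_TG, Oas1c by 0.80 (adjusted p = 0.0218) in DKO and Omt2a by 1.27 (adjusted p = 0.00972) in DKO_TG. WT replicate 1, DKO replicate 2 and DKO_TG replicate 2 were the lowest libraries of their genotype for 28, 28 and 27 of these 31 genes.

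Genes through which somatic cells answer or feed the oocyte were taken from a list of 18, of which 15 were tested. In DKO 3 rose and none fell, and in DKO_TG 5 rose and 1, Amh, fell. The share that rose, 20% in DKO and 33.3% in DKO_TG, was below and near the 30.8% and 29.1% of all tested genes, of which 25.9% and 22.3% fell. Npr2, the receptor on granulosa and cumulus cells whose cyclic GMP keeps the oocyte in meiotic arrest, was at 5.60, 9.77 and 9.42 RPKM across WT, 21.8, 13.5 and 23.7 across DKO and 18.5, 15.4 and 18.8 across DKO_TG. All 6 knockout libraries exceeded WT, and DKO replicate 2 was the lowest of them. Npr2 rose by 1.20 ± 0.25 (SE, adjusted p = 0.00368) in DKO and by 1.08 ± 0.25 (SE, adjusted p = 0.00680) in DKO_TG. The activin receptor gene Acvr1b rose by 0.52 (adjusted p = 0.00299) and Kitl, the granulosa ligand of the oocyte receptor KIT, by 0.33 (adjusted p = 0.0388) in DKO. Kitl lost that call without WT replicate 2 or 3 or DKO replicate 1 or 3. In DKO_TG the receptor gene Tgfbr1 rose by 0.69 (adjusted p = 0.00612) and Acvr1 by 0.73 (adjusted p = 0.0126). Scaled to the median of the oocyte genes, these 4 changes of Acvr1b, Kitl, Tgfbr1 and Acvr1 turned to between -0.06 and -0.30. That scaling also moved the median log2 change of all tested genes to -0.53 in DKO and -0.66 in DKO_TG. The turn is thus not particular to these genes. None of the 15 was called in DKO_TG against DKO by limma.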

How the data were processed

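Total RNA from 9 ovary samples (3 per genotype) was sequenced, and the authors deposited 1 table of RPKM values per gene. Per the submitters' processing notes, reads were handled with HISAT2 2.1.0, cutadapt, DESeq2 1.2.8 and HTSeq 0.5.4p5 on build mm10. Annotation, strand setting and the RPKM step are not stated there. Columns were matched to samples by name, and the transgenic columns, spelled slightly differently from the labels, by genotype and number.

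Gene positions and exon lengths were taken from GENCODE M21. RPKM times exon length gave whole reads for 97.8% of values, within 0.01 read or a relative 1e-06, which gave totals of 40142032 to 59387437 reads per library. The size behind the deposited RPKM was 0.793 to 0.920 of that total in WT and 1.03 to 1.11 in the knockouts, so the values were already scaled between libraries in a way that differs from the total.

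Tests used limma 3.58.1 in R 4.3.3 on log2(RPKM + 0.5) over 18889 genes with at least 0.5 RPKM in 3 libraries, with all 9 libraries in 1 fit, no block, and Benjamini-Hochberg adjustment over all tested genes. The code was tested on simulated data. The alternatives changed the pseudocount (0.1 or 1), the filter (none or 1 RPKM), the scaling (median ratio, quantile, TPM, plain total, or the median of the members), the weights (array weights), the block (replicate number), the test (limma-voom on the rebuilt reads) and the libraries (the 6 compared, or all without 1). The plain-total and member-median scalings were chosen after seeing the data. The members and lists were chosen with earlier results of these data known. All 37 members are named, those with a mean of at least 1 RPKM or a call with values in every library. Of the 2 further lists the text gives counts and the 3 called genes with the smallest adjusted p per comparison. Promoters are from a RefSeq table of build GRCm38.p6.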

Additional observations from a re-analysis of the deposited data

How the results depend on the processing

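Over 32 calls of a member in a comparison with WT, 605 alternative values were computed: 466 kept direction and call, 137 lost the call and 2 turned in sign. For Zp2, Npm2 and Pabpn1l in DKO, and Zp2, Nlrp5, Tle6, Npm2 and Oas1e in DKO_TG, the call was lost only under scaling to the median of the members. The number of members higher in DKO, 15 as reported, was 8 with no filter on low values, 6 after quantile normalization, 23 with TPM, 1 when scaled to the median of the members, 8 in a fit of the 6 libraries compared, and 5 to 29 when 1 library was left out. Quantile normalization called 1 member, Gtsf1, lower in DKO. The number higher in DKO_TG, 17 as reported, was 11 with no filter, 9 after quantile normalization, 27 with TPM, 26 with array weights, 1 when scaled to the median of the members, 26 in a fit of the 6 libraries, and 8 to 20 when 1 library was left out. In DKO_TG against DKO, leaving out 1 library gave 0 to 1 members lower. The scaling moved the median log2 change of all genes to 0.48 in DKO and 0.47 in DKO_TG with TPM, to 0.28 and 0.25 with the plain total of reads, and to -0.53 and -0.66 when scaled to the median of the members. The members' median was then 1.09 and 1.18 with TPM, 0.93 and 1.00 with the plain total, and 0.26 and 0.25 when scaled to the median of the members. Among single genes the sign turned for Khdc3 in DKO after quantile normalization, at -0.0907, and for Lhx8 in DKO_TG against WT, at -0.45. Scaled to the median of the members, the sign turned in DKO for Tle6 at -0.11, Acvr1b at -0.0629 and Kitl at -0.30, and in DKO_TG against WT for Lhx8 at -0.0432, Tgfbr1 at -0.11 and Acvr1 at -0.0644. In DKO_TG against DKO that scaling gave -0.0481 for Zp3 and -0.0037 for Gdf9. Leaving out 1 library there gave -0.21 to 0.32 for Zp3, -0.23 to 0.35 for Gdf9, -0.16 to 0.57 for Nlrp5 and -0.18 to 0.41 for Padi6. The shares of all tested genes called under these settings are not given here, so the counts do not show whether the changes are particular to the members. The cause of these changes was not tested.

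On the rebuilt reads limma-voom called 14 members higher in DKO and 16 in DKO_TG. With the replicate number as a block, 13 members were higher in DKO and 16 in DKO_TG, and 0 were called in DKO_TG against DKO. The numbers do not pair the samples, since the 9 same-number correlations ran from -0.31 to 0.14 and a library correlated best with its own number in 4 of 18 cases. The design has 3 libraries per genotype, and the members' counts rest on as little as 1 read for Figla. The WT libraries differ from the others in Malat1 and Neat1. A change against WT cannot be told apart from an effect of the kind of RNA in the libraries, which was not tested.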
